A study of Mus musculus with 2 samples.

Results

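Genes that copy DNA and supply its building blocks were examined in mouse embryonic fibroblasts (MEFs) without Bmi1, the Polycomb protein that stimulates ubiquitylation of histone H2A, and in their wild-type counterparts. The 50 genes were chosen by name and role, with earlier results of these data known. They cover origin licensing, the replicative helicase, polymerases, the clamp and its loader, and nucleotide supply. Of these, 49 had a probe set assigned to them alone among the 18194 genes represented on the array, and each gene was read at the probe set that was brightest on average (mean log2 signal of both arrays). The Bmi1 null cells and the wild-type cells were both immortalized by overexpressing TBX2, were both labelled as male and C57BL/6, and were grown without treatment in serum-containing medium. Each line was hybridized to 1 Affymetrix mouse genome array. The lines were derived from littermate embryos, and each genotype is represented by 1 line. Because there was 1 array per genotype, no p-value could be obtained, every fold below compares 2 arrays, and genotype, cell line, culture and array cannot be told apart. Bulk RNA also cannot separate a different share of cells in S phase from a different amount of RNA per cell.

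A replication origin is first bound by the origin recognition complex, on which Cdc6 and Cdt1 load the ring of Mcm2 to Mcm7, an inactive helicase. At the start of S phase the Cdc7 and Dbf4 kinase, together with cyclin-dependent kinases, converts this ring to an active helicase by adding Cdc45 and the GINS complex. DNA polymerases alpha, delta and epsilon, the sliding clamp Pcna and its loader then copy both strands, while ribonucleotide reductase, thymidine kinase and related enzymes supply the deoxynucleotides. Many of these genes are transcribed near the G1 to S transition under the control of E2F factors, so that their RNA is higher in dividing than in resting fibroblasts.

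The targeted gene and the line labels were checked first. Bmi1 signal was 2146 in null and 9933 in wild-type cells at one probe set, 4.63-fold lower, and 831 in null and 931 in wild-type cells at the other. Cdkn2a, a known target of Bmi1 repression that encodes cell cycle inhibitors, read 1415 in null and 331 in wild-type cells. The Y-linked genes Eif2s3y, Uty and Kdm5d were below the lower limit of measurement in null cells and above it in wild-type cells, although both lines carry the label male. That limit, called the floor below, was a signal of 100, or 0.2 times the trimmed mean of an array. The probe set for Tbx2, the gene used to immortalize both lines, was also below it, at 8.03 in null and 23.2 in wild-type cells, and whether it detects the introduced construct is not known.

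Markers of fibroblasts and of other cell types were read in the same way. All 9 fibroblast markers with a probe set were above the floor on at least 1 array, with a summed signal of 112127 in null and 81673 in wild-type cells. Signal was higher in null cells for 6 of the 9, by 4.38-fold for Col3a1, 2.73-fold for Col5a1 and 2.16-fold for Col1a1, and Thy1 was lower, at 50.7 in null and 375 in wild-type cells. Of 5 epithelial markers, Cdh1, Krt14 and Esrp1 were below the floor on both arrays, Krt5 was 155 in null and 149 in wild-type cells, and Epcam was 834 in null and 149 in wild-type cells, for a sum of 1074 in null and 375 in wild-type cells. Of 4 endothelial markers, Pecam1 and Tek were below the floor on both arrays, Kdr was 206 in null and 150 in wild-type cells, and Cdh5 was 29.2 in null and 208 in wild-type cells, for a sum of 299 in null and 413 in wild-type cells. Of 4 macrophage and blood markers, Ptprc and Cd68 were below the floor, while Csf1r and Emr1 were 1.15-fold and 1.45-fold lower, and the sum was 411 in null and 496 in wild-type cells. Of 4 neural markers, Sox2 and Elavl3 were below the floor, Gfap was close to it, and Tubb3 was 122 in null and 330 in wild-type cells, for a sum of 285 in null and 449 in wild-type cells. Of 3 myogenic markers, Myod1 and Myog were below the floor and Des was 1.25-fold higher, with a sum of 298 in null and 238 in wild-type cells. The part of these differences in the results below was not tested.

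Replication and nucleotide synthesis genes tended to have higher signal in Bmi1 null cells, and none was clearly lower. Of the 48 measured members, 36 were higher in null cells, that is 75.0%, against 50.6% of all 11766 measured genes. Tk1, Cdc6, Rrm2, Mcm6 and Rpa1 were at least 2-fold higher, 5 of 48 members or 10.4%, where 5.73% of all measured genes were. This excess depends on the floor, since without one the count was 6 of 49 members, or 12.2%, against 12.9% of all 18194 genes. A difference of 1.5-fold or more in that direction was seen for 14 members, or 29.2%, against 12.5% of all measured genes. No member was 2-fold lower, a difference seen for 5.16% of all measured genes, and no member was 1.5-fold lower, a difference seen for 12.0%. The median log2 ratio of null over wild-type was 0.19 for the members and 0.01 for all measured genes.

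The same counts were made for bright genes alone. Among the 34 members whose brighter signal reached the trimmed mean of 500, 4 passed 2-fold and 12 passed 1.5-fold on the higher side, or 11.8% and 35.3%. Of the 7511 genes that bright in the whole data set, 6.16% passed 2-fold and 12.3% passed 1.5-fold on that side. All 48 measured members were above the floor on both arrays, so each ratio is a measured value and not a bound. Tyms, the thymidylate synthase, was below the floor on both arrays at its brightest probe set, with 77.3 in null and 32.6 in wild-type cells, and has no ratio. Chaf1a, a subunit of the chromatin assembly factor CAF-1, was not analysed here.

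**Figure D1:**
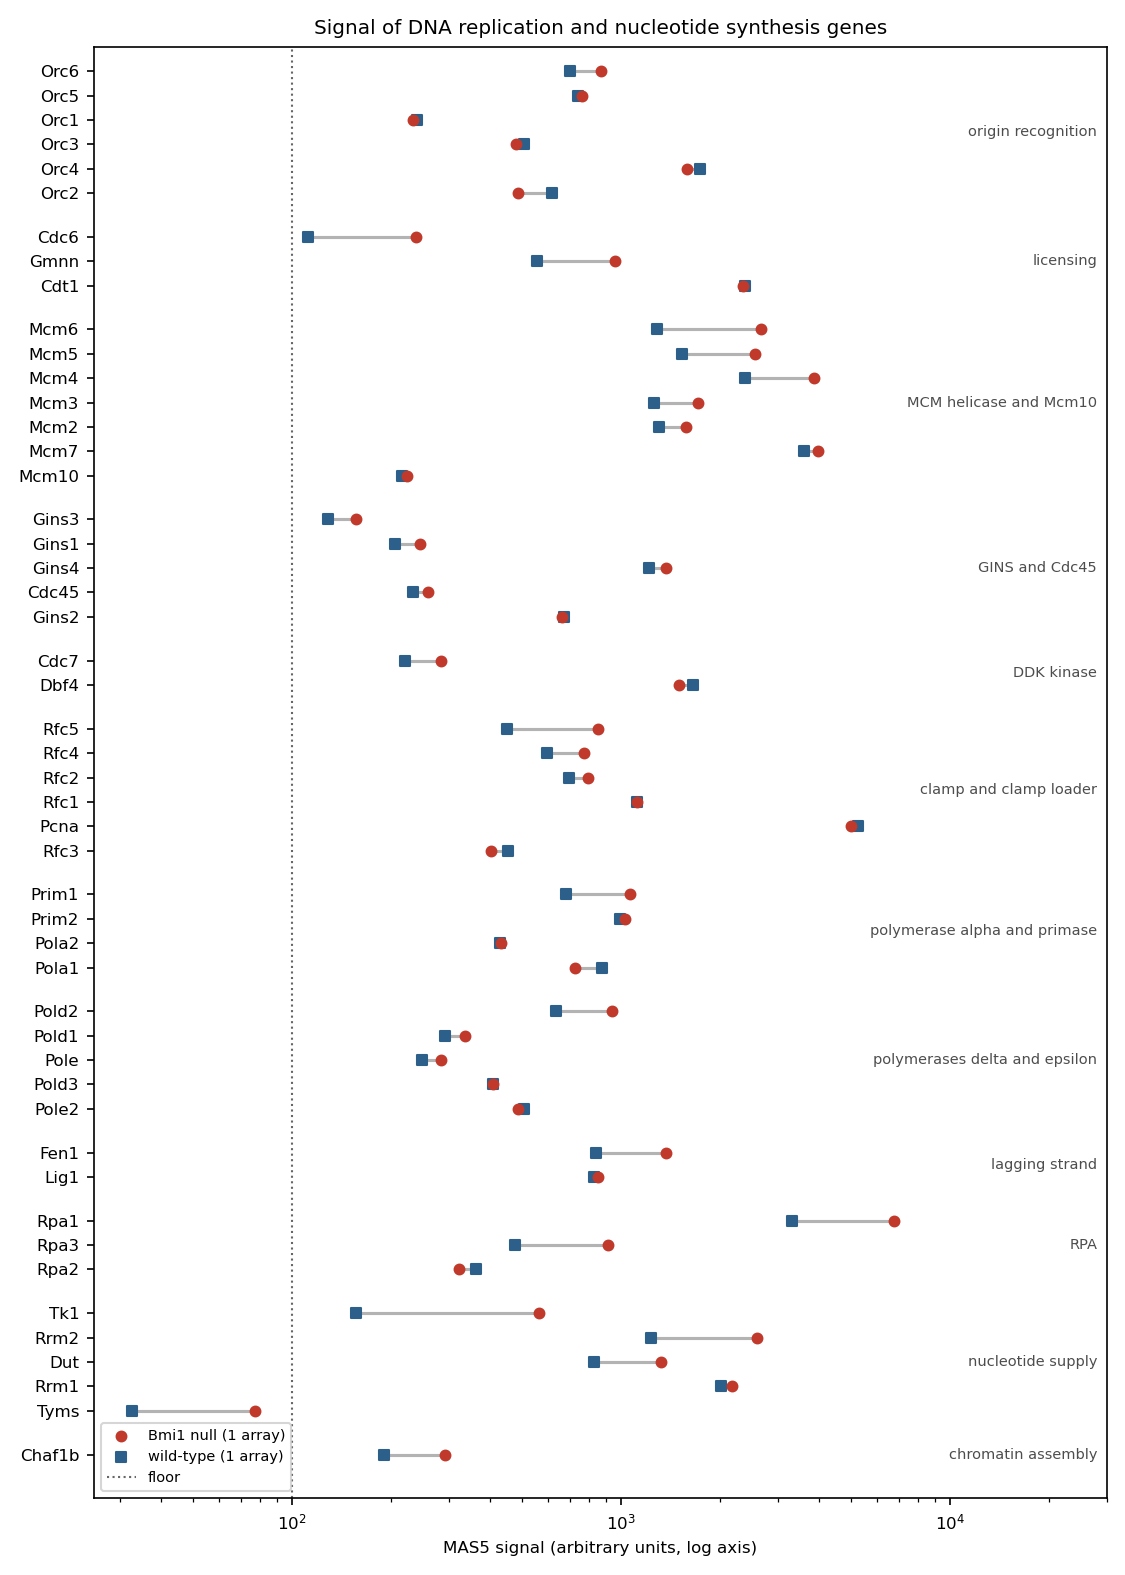
MAS5 signal (x axis, log scale, arbitrary units) of each of the 49 genes with a probe set on the Bmi1 null array (red circles) and the wild-type array (blue squares), grouped by role, with the floor of 100 dotted. Levels of different genes come from different probes and are not comparable; the red circle lies right of the blue square in 36 of 48 measured genes, widest for Tk1.

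The precision of a single ratio was judged from genes with several probe sets, in place of replicates. Over 4591 genes with a pair of probe sets that both arrays measured above the floor, the log2 ratio of 1 probe set had an SD of 0.29, and over the 27 members with such a pair it was 0.24. This spread covers probe error only and leaves out the variation between cultures. Of the 48 members, 28 had a log2 ratio within 0.29 of 0, 14 were above 0 by more than 0.58, which is 2 such SDs, and 0 were below it by as much. The 14 are the members at least 1.5-fold higher, since 2 such SDs lie close to 1.5-fold. Of all 11766 measured genes, 12.5% were at least 1.5-fold higher, and the quartiles of their log2 ratios were −0.29 and 0.30.

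Promoters are shown for the 5 members past 2-fold and for the 2 with the lowest ratios, Orc2 and Pola1, so that the sites of cell cycle regulators near their start sites can be compared. Each run is 300 bases from RefSeq on build GRCm38.p6, written 5′ to 3′ along the gene from 250 bases before the transcription start to 50 after it. Capitals mark E2F letters (TTTCGCGC, TTTGGCGC, TTTCCCGC or TTTGCCGC) and CCAAT box letters (CCAAT, bound by NF-Y), each on either strand. The upstream one of the 2 Orc2 start sites is shown.
Tk1 (chr11:117825965-117826264, reverse strand): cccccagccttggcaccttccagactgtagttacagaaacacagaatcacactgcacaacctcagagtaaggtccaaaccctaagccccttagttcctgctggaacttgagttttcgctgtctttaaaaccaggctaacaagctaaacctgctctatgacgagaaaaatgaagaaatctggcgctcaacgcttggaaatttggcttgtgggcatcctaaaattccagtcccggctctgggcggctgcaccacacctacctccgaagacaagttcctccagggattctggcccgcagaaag
Cdc6 (chr11:98907901-98908200, forward strand): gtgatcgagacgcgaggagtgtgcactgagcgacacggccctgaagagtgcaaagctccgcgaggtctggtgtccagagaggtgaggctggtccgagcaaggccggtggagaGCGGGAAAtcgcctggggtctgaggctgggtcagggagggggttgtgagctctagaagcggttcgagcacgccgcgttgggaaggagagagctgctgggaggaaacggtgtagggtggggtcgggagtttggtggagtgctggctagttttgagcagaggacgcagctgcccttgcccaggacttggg
Rrm2 (chr12:24708004-24708303, forward strand): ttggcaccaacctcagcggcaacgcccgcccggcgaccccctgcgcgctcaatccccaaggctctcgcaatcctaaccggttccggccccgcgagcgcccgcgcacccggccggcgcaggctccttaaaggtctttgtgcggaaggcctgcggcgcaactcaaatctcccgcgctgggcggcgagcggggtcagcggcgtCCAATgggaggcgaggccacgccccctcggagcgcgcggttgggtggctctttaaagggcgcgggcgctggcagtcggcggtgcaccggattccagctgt
Mcm6 (chr1:128359656-128359955, reverse strand): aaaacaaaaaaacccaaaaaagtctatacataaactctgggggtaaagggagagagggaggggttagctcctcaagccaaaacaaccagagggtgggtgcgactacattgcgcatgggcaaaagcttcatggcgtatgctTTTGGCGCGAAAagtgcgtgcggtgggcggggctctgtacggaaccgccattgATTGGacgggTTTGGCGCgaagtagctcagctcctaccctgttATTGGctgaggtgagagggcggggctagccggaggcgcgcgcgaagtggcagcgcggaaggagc
Rpa1 (chr11:75348334-75348633, reverse strand): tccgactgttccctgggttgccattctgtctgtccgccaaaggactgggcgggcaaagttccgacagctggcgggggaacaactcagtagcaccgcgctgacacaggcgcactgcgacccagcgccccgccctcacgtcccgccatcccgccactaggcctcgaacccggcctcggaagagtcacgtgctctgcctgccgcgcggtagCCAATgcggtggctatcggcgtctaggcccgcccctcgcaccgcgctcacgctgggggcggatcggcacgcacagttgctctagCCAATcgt
Pola1 (chrX:93632106-93632405, reverse strand): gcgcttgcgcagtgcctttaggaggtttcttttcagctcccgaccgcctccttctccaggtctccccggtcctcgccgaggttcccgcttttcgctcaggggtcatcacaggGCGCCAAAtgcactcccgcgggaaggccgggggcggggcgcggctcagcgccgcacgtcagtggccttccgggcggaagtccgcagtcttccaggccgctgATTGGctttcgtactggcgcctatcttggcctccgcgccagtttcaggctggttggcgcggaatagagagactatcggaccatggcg
Orc2 (chr1:58505060-58505359, reverse strand): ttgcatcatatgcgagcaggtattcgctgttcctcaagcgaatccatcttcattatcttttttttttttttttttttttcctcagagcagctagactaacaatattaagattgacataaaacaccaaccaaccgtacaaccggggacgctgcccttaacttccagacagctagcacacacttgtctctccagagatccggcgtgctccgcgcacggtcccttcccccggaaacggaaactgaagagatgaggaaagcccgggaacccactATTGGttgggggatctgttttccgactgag
The Mcm6 window held 3 E2F matches, of which the pair that begins at −110 and −106 relative to the start overlaps, and 2 CCAAT boxes. Cdc6 and Pola1 held 1 E2F match each, at −138 in both. Cdc6 was printed for its high ratio and Pola1 for its low ratio, and a link between letters and ratio was not tested. Rrm2 and Rpa1 held CCAAT boxes without E2F letters, and the Tk1 window held neither.

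Over all members the E2F letters were common, and whether they go with the ratio was not tested. A promoter window was found for 41 members, and 15 of them, or 36.6%, held E2F letters in at least 1 window, against 2.61% of the 27025 genes in the RefSeq table and 3.81% of the 14453 that also had a symbol on the array. Of the 12 members at least 1.5-fold higher with a window, 3 held them (Cdc6, Mcm5 and Mcm6), and of the 28 that differed less, 12 did. CCAAT letters were found in 23 of 41 members, or 56.1%, against 41.1% of the table and 42.0% of the array genes. The letters TTTGAA of the CHR element were found in 7 of 41, or 17.1%, between the 20.2% of the table and the 15.7% of the array genes. A letter match is a description of the window and not evidence that a factor binds there. Members without an entry in the table were Gmnn, Mcm4, Gins1, Gins2, Gins4, Rfc2, Prim2 and Pole. Chaf1a, which had no probe set of its own, was not looked up there.

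**Figure D2:**
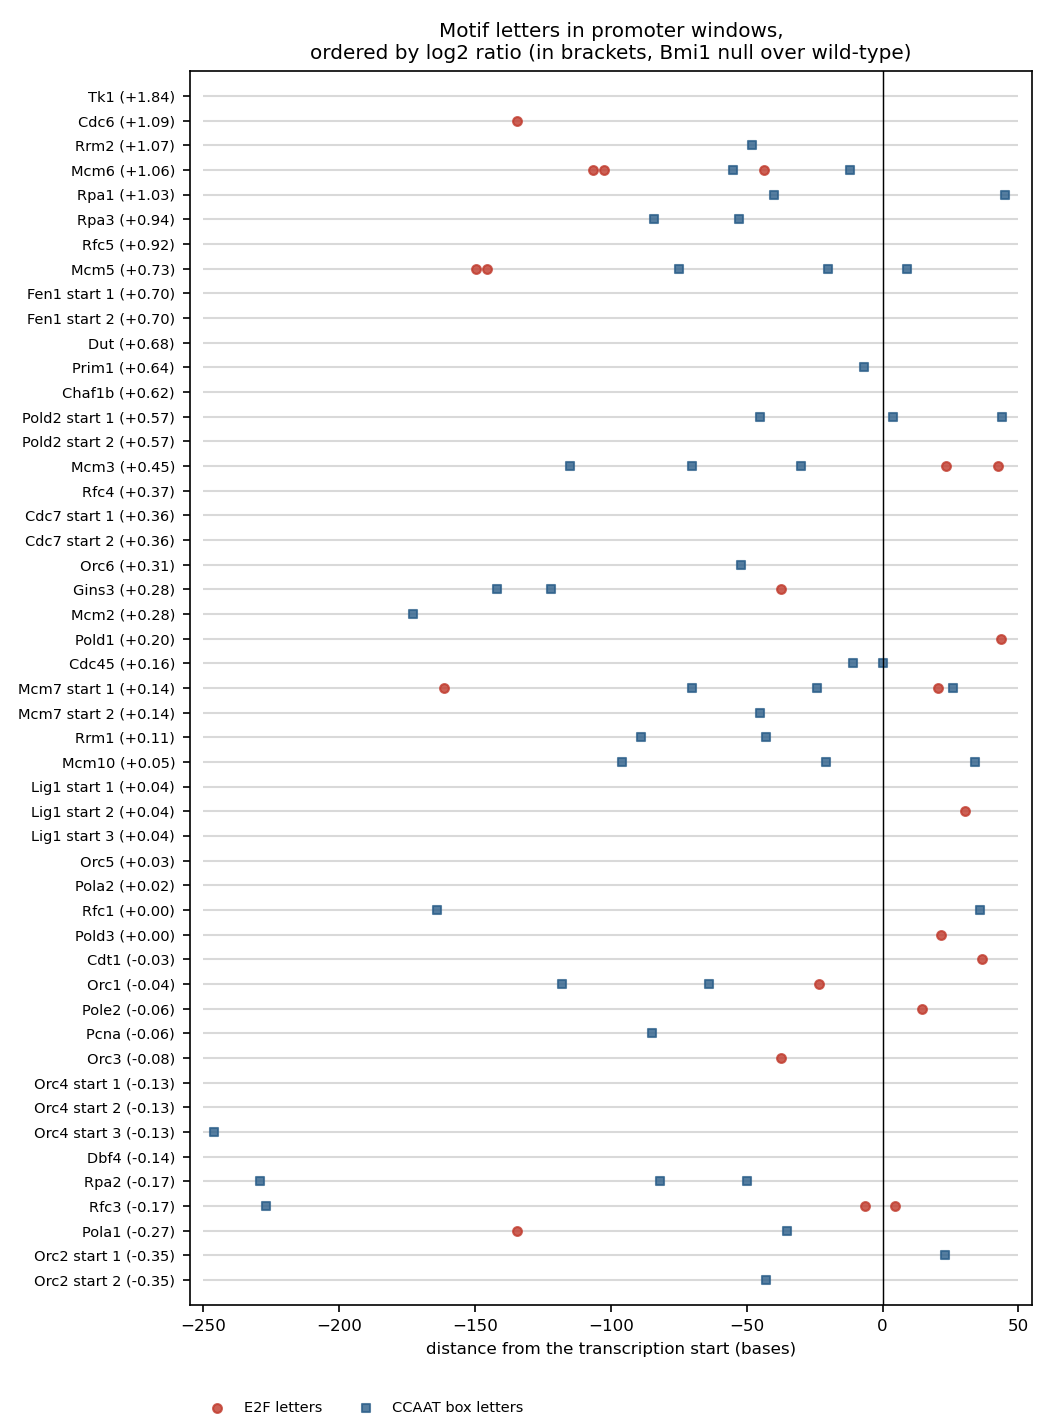
Position of E2F letters (red circles) and CCAAT box letters (blue squares) by distance from the transcription start in bases (x axis) in the promoter windows of the 40 measured members with an entry, highest log2 ratio at the top and the ratio in brackets. E2F letters occur in 3 of the 12 genes at least 1.5-fold higher and in 12 of the other 28.

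The origin recognition complex, which marks origins in all phases of the cell cycle apart from its regulated subunit Orc1, was close to equal in both lines. Its 6 subunits had log2 ratios between −0.35 and 0.31, with a median of −0.06, and 2 of 6 were above 0. Orc2 signal was 486 in null and 619 in wild-type cells, 1.27-fold lower, the lowest ratio of all members. Its other probe sets had log2 ratios of 0.14 and −0.07, so the direction depended on the probes. Orc4 read 1590 in null and 1739 in wild-type cells, 1.09-fold lower, with the same sign at its 2 other measured probe sets. Orc3 was 481 in null and 508 in wild-type cells, and Orc1 was 234 in null and 240 in wild-type cells. A dimmer Orc1 probe set was 1.41-fold higher in null cells, at 194 against 138 in wild-type cells. Orc5 and Orc6, the remaining subunits, were 1.02-fold and 1.24-fold higher.

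Licensing factors differed from one another. Cdc6, the ATPase that joins the origin recognition complex to load the helicase, had a signal of 238 in null and 112 in wild-type cells, 2.13-fold higher. Its wild-type signal lay close to the floor, and it has 1 probe set. Gmnn, or geminin, which binds Cdt1 and blocks a second round of licensing, was 960 in null and 556 in wild-type cells, 1.73-fold higher. Cdt1 itself, the partner that brings the helicase to the origin, was 2342 in null and 2384 in wild-type cells. Thus the inhibitor was higher in null cells, whereas its target differed 1.02-fold, and a second Cdt1 probe set differed by a log2 ratio of 0.09.

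All 6 subunits of the Mcm2 to Mcm7 ring were higher in null cells at the probe sets used, but to different extents, and Mcm3 was lower in the 2 alternatives that took another of its probe sets alone. Mcm6 was 2673 in null and 1286 in wild-type cells, a 2.08-fold difference, and another probe set gave 1.52-fold. Mcm5 was 2548 in null and 1536 in wild-type cells, 1.66-fold higher, and its other measured probe set was 1.47-fold higher. Mcm4 was 3864 in null and 2380 in wild-type cells, 1.62-fold higher, against 1.20-fold at its other probe set. Mcm2 was 1.21-fold higher, and 1.11-fold at its other probe set. These 4 subunits were thus higher at every measured probe set, with a smaller fold at the dimmer one. Mcm3 was 1.37-fold higher. Mcm7 was 3961 in null and 3597 in wild-type cells, 1.10-fold higher, and its 3 other probe sets lay between −0.05 and 0.00 on the log2 scale. Mcm10, a separate protein that helps the assembled helicase to start unwinding, was 1.04-fold higher.

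Mcm3 was the member whose probe sets disagreed most. Its 5 measured probe sets had log2 ratios of 1.40, 1.13, 0.45, −0.09 and −0.24. Signal at the first of these was 1280 in null and 484 in wild-type cells, whereas at the last it was 344 in null and 405 in wild-type cells. The value of Mcm3 therefore depends on the probe set, and the gene was not counted among the members at least 1.5-fold higher.

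**Figure D3:**
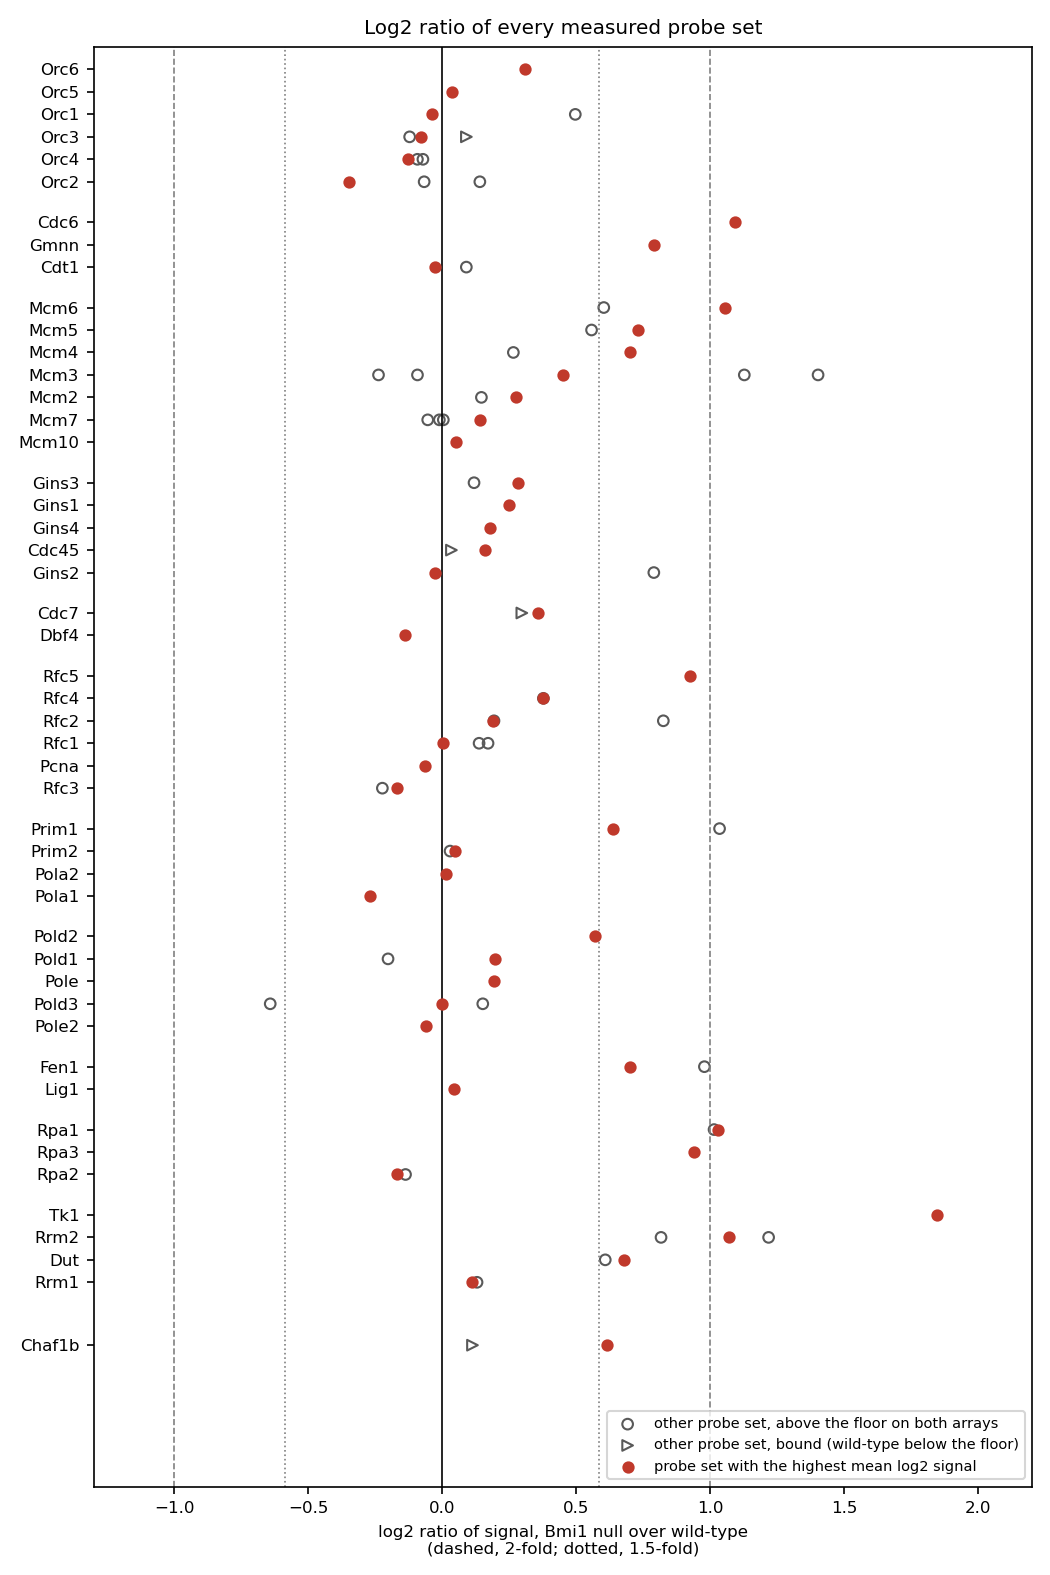
Log2 ratio of signal, Bmi1 null over wild-type (x axis), for all 90 measured probe sets of the 48 members, by role. Red points are the probe sets used for each gene, open circles are its other probe sets, triangles are lower bounds, and dashed and dotted lines mark 2-fold and 1.5-fold; Rpa1, Rrm2 and Dut keep their probe sets together on the right, and Mcm3 spreads from −0.24 to 1.40.

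Factors that turn the loaded ring into a moving helicase differed little. The 4 GINS subunits had log2 ratios from −0.03 to 0.28, and Cdc45, which joins GINS and the ring in the active helicase, was 1.12-fold higher. Gins2 was 661 in null and 673 in wild-type cells at the probe set used, but a second probe set was 1.73-fold higher at 594 in null and 344 in wild-type cells. Gins4 was 1375 in null and 1216 in wild-type cells. The catalytic kinase subunit Cdc7 was 283 in null and 221 in wild-type cells, 1.28-fold higher, and its activator Dbf4 was 1506 in null and 1660 in wild-type cells, 1.10-fold lower.

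The sliding clamp and most of its loader were close to equal. Pcna, which holds polymerases on DNA, read 5013 in null and 5236 in wild-type cells, 1.04-fold lower. Rfc5, a small subunit of the replication factor C loader, was 853 in null and 450 in wild-type cells, 1.90-fold higher, and stood apart from the other 4 subunits. Of these, Rfc4 was 1.30-fold higher and Rfc2 1.14-fold, the large subunit Rfc1 read 1122 in null and 1121 in wild-type cells, and Rfc3 was 404 in null and 454 in wild-type cells, 1.13-fold lower. Rfc5 has 1 probe set, so its ratio could not be compared within the gene. One dim Rfc2 probe set was 1.77-fold higher, at 228 in null and 129 in wild-type cells.

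Polymerase subunits also gave mixed values within a complex. Prim1, the catalytic primase that lays down RNA primers, was 1063 in null and 683 in wild-type cells, 1.56-fold higher, and 2.05-fold higher at a dimmer probe set. Its partner Prim2 was 1029 in null and 996 in wild-type cells, 1.03-fold higher. Pola1, the catalytic subunit of polymerase alpha, was 727 in null and 877 in wild-type cells, 1.21-fold lower, and its accessory subunit Pola2 was 1.01-fold higher. For the polymerases that extend the primers, Pold2 was 942 in null and 634 in wild-type cells, 1.49-fold higher and just under the 1.5-fold line. Pold1 and Pole, the catalytic subunits of polymerases delta and epsilon, were 1.15-fold and 1.14-fold higher, although a second Pold1 probe set was 1.15-fold lower. Pole2 was 486 in null and 508 in wild-type cells, 1.04-fold lower. Pold3 differed 1.00-fold at its brightest probe set, while another read 214 in null and 333 in wild-type cells, 1.56-fold lower, the lowest ratio of any member probe set.

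Enzymes that finish the lagging strand split in the same way. Fen1, the nuclease that trims the flaps of Okazaki fragments, was 1368 in null and 841 in wild-type cells, 1.63-fold higher, and 1.97-fold higher at its second probe set. Lig1, the ligase that seals the fragments, was 1.03-fold higher, at 853 in null and 827 in wild-type cells.

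Replication protein A, the trimer that coats single-stranded DNA, held the widest contrast within a complex at the probe sets used. Rpa1, its large DNA-binding subunit, was 6739 in null and 3303 in wild-type cells, 2.04-fold higher, and its other probe set gave 2.02-fold, at 3231 in null and 1600 in wild-type cells. Rpa3, the small subunit, was 913 in null and 476 in wild-type cells, 1.92-fold higher. Rpa2, the subunit phosphorylated in the cell cycle and after DNA damage, was 322 in null and 362 in wild-type cells, 1.12-fold lower, and 1.10-fold lower at its second probe set. The log2 ratios of the 3 subunits thus spanned 1.20, compared with 1.09 across the 5 subunits of the loader and 0.92 across the helicase ring. The span was 0.91 across polymerase alpha and primase, 0.66 across the origin recognition complex and 0.31 across GINS. The lead over the loader was smaller than the SD of 0.29 of 1 probe set.

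Nucleotide supply had the highest median of the role groups with at least 4 measured members, a log2 ratio of 0.87 over 4. The RPA group, with 3 measured members, had a higher median of 0.94. Tk1, the thymidine kinase that salvages thymidine in S phase, was 562 in null and 157 in wild-type cells, 3.59-fold higher and the highest ratio of all members, from 1 probe set. Rrm2, the regulated subunit of ribonucleotide reductase, was 2588 in null and 1232 in wild-type cells, 2.10-fold higher, with 2.33-fold and 1.76-fold at its other probe sets. Rrm1, the large and more stable subunit of the same enzyme, was 2173 in null and 2014 in wild-type cells, 1.08-fold higher. The 2 subunits of ribonucleotide reductase thus differed in their ratios, each with measured probe sets that gave similar values. Dut, the dUTPase that keeps uracil out of DNA, was 1326 in null and 830 in wild-type cells, 1.60-fold higher, and 1.52-fold higher at a dimmer probe set. Tyms could not be judged, since all 4 of its own probe sets were below the floor on both arrays, and 1 further probe set shared with a pseudogene was left out. The CAF-1 subunit Chaf1b, which deposits histones behind the fork, was 293 in null and 191 in wild-type cells, 1.53-fold higher, while a dimmer probe set gave a bound of at least 1.08-fold.

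Among the 30 members with at least 2 measured probe sets, 21 had log2 ratios on the same side of 0 at all of them. Of the 14 members at least 1.5-fold higher, 9 had at least 2 measured probe sets. In all 9 every measured probe set was higher in null cells, and in 6 every one was at least 1.5-fold higher. Each of the 9 was picked by 1 of the probe sets counted here. Over all members, 66 of 90 measured probe sets were higher in null cells, 25 of them by 1.5-fold or more, and 1 was lower by that much. No such counts were made over all probe sets of the array. By gene, 50.6% of all measured genes were higher, 12.5% by 1.5-fold or more, and 12.0% were lower by that much. The probe sets of the members share the 2 arrays and are not replicates.

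Other genes of replication and nucleotide metabolism were listed by role, with earlier results of these data known. They had a median near that of all genes and fewer large differences. Their median log2 ratio was 0.05 over 56 measured genes. A difference of 1.5-fold or more was seen for 7 on the higher side, or 12.5%, the same share as of all measured genes, and for 2 on the lower side, or 3.57%, against 12.0% of all measured genes. At 2-fold, 0 were higher, against 5.73% of all measured genes, and 1 was lower, or 1.79%, against 5.16%. The following genes are named after their values were seen. The helicase Recql4 was the 1 gene at least 2-fold lower, at 127 in null and 298 in wild-type cells, and the mitochondrial serine hydroxymethyltransferase Shmt2 was 4473 in null and 7670 in wild-type cells, 1.71-fold lower. The 7 on the higher side included topoisomerase Top2a, which was 1630 in null and 852 in wild-type cells. The salvage kinase Dck was 1811 in null and 1029 in wild-type cells. The others were Dscc1 (1.77-fold), Dna2 (a bound of at least 1.71-fold), Atad5 (1.65-fold), Samhd1 (1.56-fold) and Dtymk (1.52-fold).

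Neighbouring groups of the cell cycle are set beside the members without a test. The 15 measured regulators of G1 and S phase had a median log2 ratio of 0.41, and 4 of them, or 26.7%, were at least 1.5-fold higher, against 12.5% of all measured genes. The 28 measured mitosis genes had a median of 0.78, with 21 (75.0%) at least 1.5-fold higher, and the 12 measured genes of recombination and mismatch repair had a median of 0.24, with 3 (25%) at least 1.5-fold higher. The median of the replication and nucleotide genes, 0.19, was below those of all 3 groups.

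**Figure D4:**
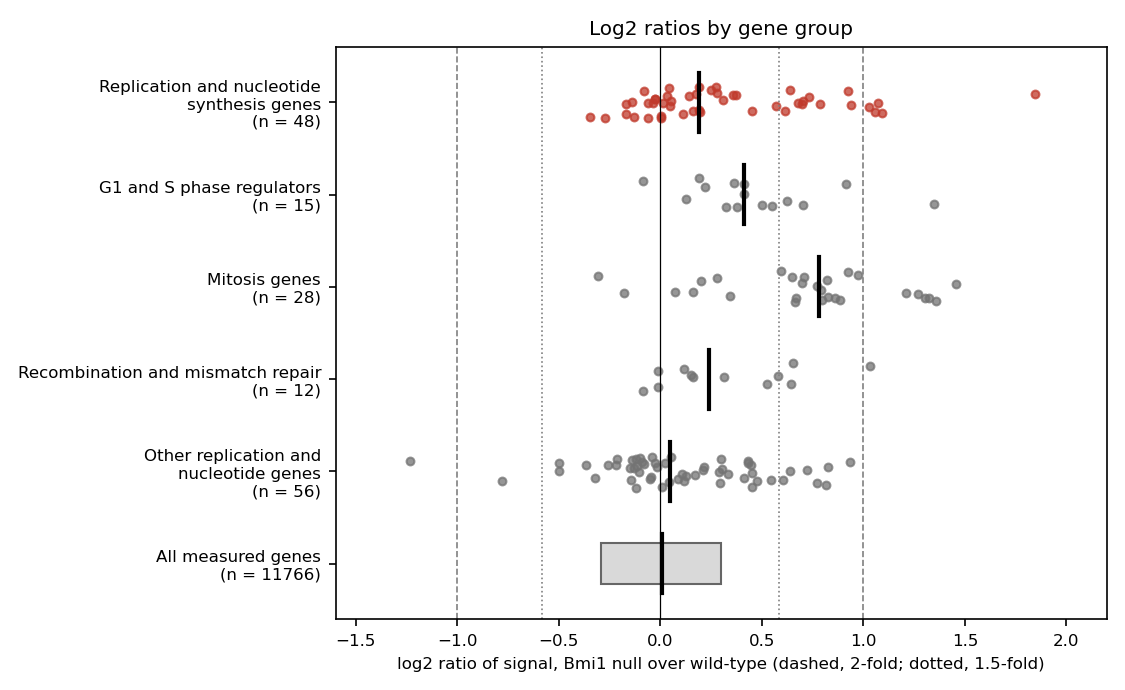
Log2 ratio of signal, Bmi1 null over wild-type (x axis), for measured genes (points, scattered vertically for visibility) of 5 groups, with black bars at the medians and, for all 11766 measured genes, a box from the lower to the upper quartile. The replication and nucleotide genes (red) have a median of 0.19 and a highest value of 1.84 at Tk1, while the mitosis genes have a median of 0.78. The box does not show the full range of all measured genes, −6.70 to 6.61.

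Finally, the members were compared with the study's list of genes whose promoters carry a peak of Bmi1-dependent ubiquitylated H2A in the same pair of lines. That list matched 565 of the 18194 genes. One gene, Mcm5, was shared, which is 1 of 49 members and 1 of 565 listed genes. Mcm5 was 1.66-fold higher in null cells. Of the 57 other replication and nucleotide genes with a probe set, 3 were on the list, Tipin, Pole3 and Rnaseh2c. Whether a peak goes with the ratio was not tested.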

How the data were processed

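Biotinylated cRNA made from total RNA with an oligo(dT) primer was hybridized for 1 Bmi1 null and 1 wild-type MEF line. The authors derived 1 linear intensity per probe set with Microarray Suite (MAS5). The deposited intensities had a mean of 500 on both arrays once 2% of values were trimmed from each end, so a shift shared by most genes would be lost. Precision is limited by the number of arrays.

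Of 45101 probe sets, 34958 named 1 gene in the platform annotation and were used. Another 932 named several genes and 9211 had no symbol listed. Entrez identifiers placed 34754 of them in the RefSeq table of GRCm38, with 0 symbols changed. Each gene was represented by its brightest probe set on the mean log2 scale. Signals below 100 were set to that floor, a gene at or below it on both arrays had no ratio, and log2 ratios are null over wild-type. The members, the lists and the 2-fold and 1.5-fold lines were chosen with earlier results of these data known. Both signals are given for members at least 1.5-fold different or lower in null cells and for the brightest of each role. Fold calls are descriptions without a test. The steps were tested on simulated data, and 9 alternative settings were run. Motif letters were searched in RefSeq promoter windows. Computation used Python 3.11.15, pandas 2.3.3, numpy 2.4.6 and scipy 1.17.1.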

Additional observations from a re-analysis of the deposited data

How the results depend on the processing

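The median log2 ratio of the members, 0.19, stayed between 0.12 and 0.21 over 9 alternatives that changed the floor, the choice of probe set or the scaling, while the median of all genes stayed between −0.01 and 0.04. The count of members at least 1.5-fold higher, 14, ranged from 11 to 15, and no alternative gave a member 1.5-fold or 2-fold lower. The count at least 2-fold higher, 5 of 48, was 3 of 42 (7.14%, against 5.69% of all genes) without the probe sets whose suffixes (_s_at, _x_at and _a_at) mark probes that can match several transcripts. It was 3 of 48 (6.25%, against 4.30%) with the probe set nearest to 0. With no floor it was 6 of 49, or 12.2%, against 12.9% of all genes, so the excess at 2-fold was absent there, while at 1.5-fold the shares were 30.6% of members and 21.5% of all genes. Without those suffixes Mcm6 was 1.52-fold higher and Cdc6 had no probe set. Of the 14 members at least 1.5-fold higher, 9 stayed so in every alternative that gave them a value. Mcm4 fell short with a log2 ratio of 0.27 at its lowest, Mcm5 with 0.56, Prim1 with 0.57, Chaf1b with 0.11 and Cdc6 with 0.25, where the floor was set at 0.4 times the trimmed mean. Without the suffixed probe sets the log2 ratio of Mcm3 was −0.24 and that of Pold1 −0.20, both turned in sign, and Gins2 was 0.79. No paired analysis was possible because each genotype had 1 array, and for the same reason no replicate could be left out. Signals near the floor, as for Cdc6 and to a lesser degree Tk1 in wild-type cells, limit the precision of a fold.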
